A study of Mus musculus with 6 samples.

Results

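Keratins, desmosome genes and a few other epithelial genes were followed in fibroblasts sorted from mouse ventral skin, as a measure of epithelial RNA in each sample. The members were the single-gene probe sets whose gene was a keratin with a numbered symbol (Krt followed by digits only), a desmoglein, a desmocollin or a plakophilin, together with Dsp, Jup, Perp, Trp63, Sfn and Cdh1. The rule used names and not measured values, and it gave 68 genes, of which 49 were keratins, out of 22180 named genes on the array. Where a gene had several probe sets, as held for 3 members (Cdh1, Dsg2 and Krt18), the brightest was taken. Krt5, the usual partner of Krt14, shared its probe set with Krt6a and had no value of its own. Krt6a, Krt6b, Krt33a and Krt33b carry a letter after the number and were therefore not members.

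Fibroblasts of 3 wild-type (WT) littermate samples were set against those of 3 samples from K14-PTHrP (KrP) transgenic mice, each on 1 array. All were females aged 8 to 12 weeks on a C57BL/6 background, and the tissue was ventral skin, which is described as nipple-like in KrP mice and as telogen skin in WT mice. In the KrP line a keratin 14 promoter, active in basal keratinocytes, drives parathyroid hormone-related protein, so the transgene would reach the fibroblasts from outside, which was not tested here. The descriptions of KrP 2 and KrP 3 name other keratins than K14, whereas their genotype field names K14, which was used. Cells from digested skin were pooled and then sorted for viable CD140+ cells that lacked CD31, CD45, CD117 and CD49f. The labels mention 3 mice without saying whether these served 1 sample or a whole genotype, so the p-values reflect sample-to-sample spread alone, part or all of which may be technical.

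Keratins are intermediate filament proteins that assemble as pairs of a type I and a type II chain, and each epithelial layer uses its own pairs. Desmosomes tie these filaments to the cell surface: desmogleins and desmocollins are their cadherins, plakoglobin (Jup) and plakophilins bind the cadherin tails, and desmoplakin (Dsp) links the plaque to keratin. Dermal fibroblasts build their filaments from vimentin instead, so most of these genes mark keratinocytes in skin.

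The labelled cell type was borne out by its markers. All 15 fibroblast markers listed lay above background on all 6 arrays, and the mean of the list ran from 11.61 in WT 1 to 12.42 in KrP 3 on the log2 scale. Vim, which encodes vimentin, ran from 13.67 to 13.89. Background was read from 1105 olfactory receptor genes, whose means had a median log2 value of 4.04 and a 95th percentile of 6.28. In the comparison of KrP with WT, limma called 483 of 22180 genes (2.18%) at a Benjamini-Hochberg adjusted p under 0.05. One array stood apart for the members, the WT sample numbered 2 (WT 2), and results that rest on it are given with and without it.

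WT 2 carried the highest level of 31 of the 49 keratins and of 8 of the 16 desmosome genes. It was the single highest array for 41 of the 68 members (60.3%), where it was the highest for 24.9% of all genes. Many of these margins were small: the median margin of WT 2 over the highest other array was 0.05 for the members, against -0.17 for all genes. On no array did 24 of the members pass background. Of the other arrays, none was highest for more than 6 members. WT 2 exceeded each of the other 5 arrays by at least 1 log2 unit for 6 members (8.82%) and for 34 of all genes (0.153%), and no other array did so for any member. The members with that margin were Krt17, Perp, Dsc3, Dsg3, Krt8 and Cdh1. Krt16, Dsp, Krt18 and Krt14 followed with margins between 0.81 and 0.90. Of the members, 43 lay above the background percentile in WT 2 and between 23 and 33 on each other array. The mean log2 value over the 68 members was 6.53 in WT 2 and between 6.06 and 6.19 on the other arrays. In the array with the lowest mean, KrP 1, 31 members had their lowest value (45.6%, against 24.9% of all genes). In sorted bulk samples, more cells of a type and more RNA per cell cannot be told apart.

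**Figure D1:**
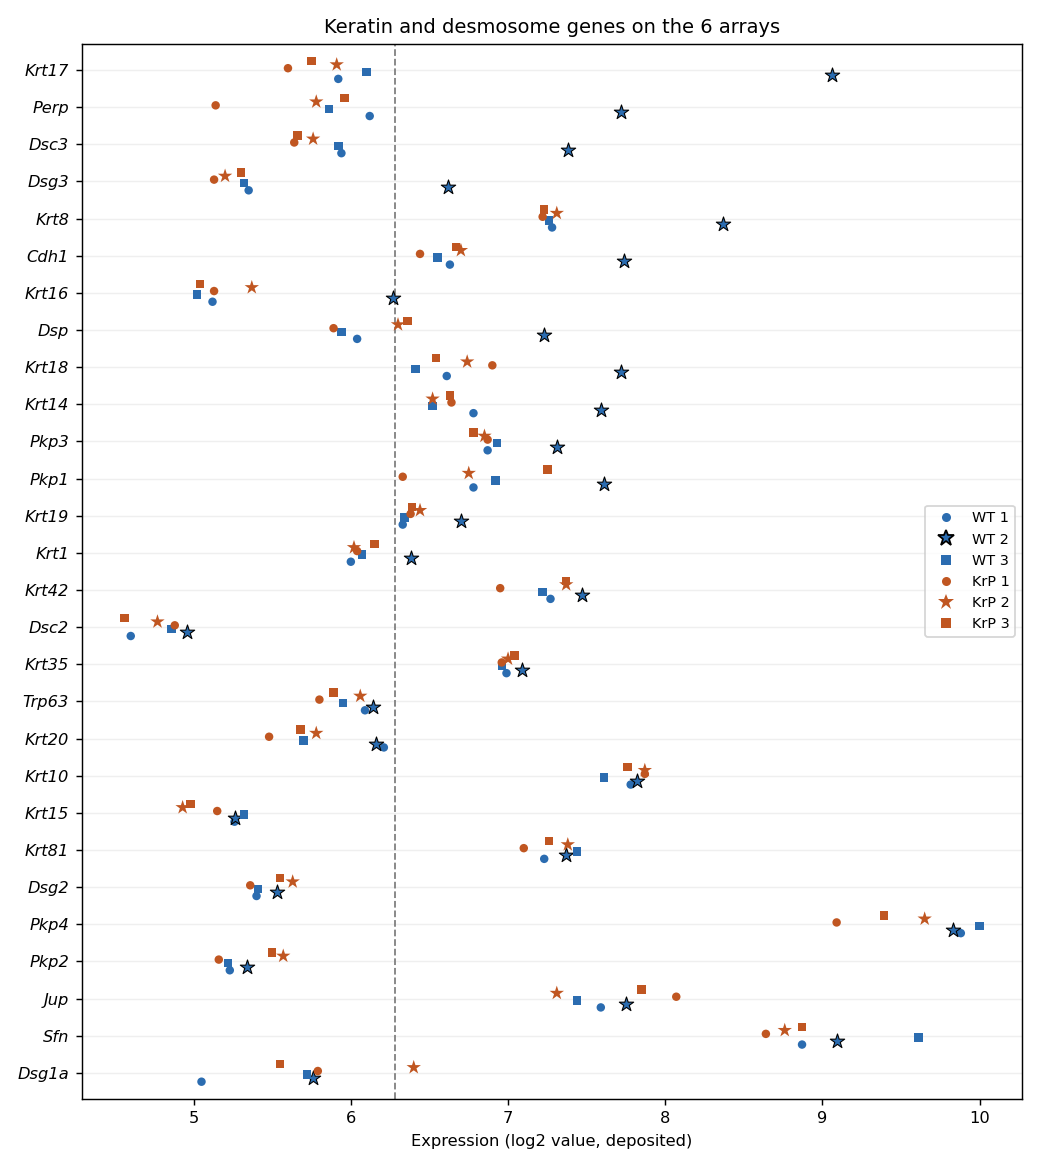
Deposited log2 values (x axis) of the 28 members named by the rule, ordered by the margin of WT 2 over the other arrays. Blue symbols are the WT and orange the KrP arrays, with 1 symbol per array, the outlined star is WT 2, and the dashed line marks 6.28, the 95th percentile of olfactory receptor genes; Krt17 lies at 9.06 in WT 2 and at no more than 6.10 elsewhere.

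Of the keratins induced in activated epithelium, Krt17 had the widest margin in WT 2. Krt17, a type I keratin of hair follicles and of wounded or stressed epidermis, had log2 values of 5.92, 9.06 and 6.10 in WT 1, WT 2 and WT 3, and of 5.60, 5.91 and 5.75 in KrP 1, KrP 2 and KrP 3. Its value in WT 2 was 2.96 log2 units above the next highest array. The other 5 arrays all lay under the background percentile, so no fold is given. Krt16, which is induced in the same settings, had 5.12, 6.27 and 5.02 in the WT and 5.13, 5.37 and 5.04 in the KrP arrays. It was also highest in WT 2, but it did not pass background there. Krt6a, a type II partner of both and not a member, had 7.95 in WT 2 and between 6.10 and 6.42 elsewhere. Krt6b, its close relative and no member either, had a margin of only 0.22, with 5.63, 6.32 and 5.10 in the WT and 6.10, 5.97 and 5.97 in the KrP arrays. The probe set shared by Krt5 and Krt6a had 7.80 in WT 2 and between 6.57 and 6.86 on the other arrays, and cannot be given to either gene.

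Keratins of the resting epidermis differed less between arrays. Krt14, the type I keratin of basal keratinocytes and the source of the promoter used in the transgene, had log2 values of 6.78, 7.59 and 6.52 in the WT and 6.64, 6.52 and 6.63 in the KrP arrays. WT 2 was 1.75-fold above the next array, and the 3 KrP arrays lay within the range of WT 1 and WT 3. Krt15, a type I keratin of basal cells and the follicle bulge, stayed at background, with 5.26, 5.26 and 5.32 in the WT and 5.15, 4.93 and 4.98 in the KrP arrays. Of the keratins of upper epidermal layers, Krt1 had 6.00, 6.38 and 6.07 in the WT and 6.04, 6.02 and 6.15 in the KrP arrays. Its partner Krt10 had a mean of 7.79, with 7.78, 7.82 and 7.61 in the WT and 7.87, 7.87 and 7.76 in the KrP arrays. Krt10 thus lay above background on every array with a range of 0.26, and WT 2 did not stand out for it.

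The pair of simple epithelia, Krt8 and Krt18, were both high in WT 2. Krt8, the type II chain, had log2 values of 7.28, 8.37 and 7.26 in the WT and 7.22, 7.31 and 7.23 in the KrP arrays, so that the 5 other arrays spanned 0.09 and WT 2 lay 2.08-fold above the highest of them. Krt18, the type I chain, had 6.61, 7.72 and 6.41 in the WT and 6.90, 6.74 and 6.54 in the KrP arrays. Its second probe set had 6.45 in WT 2 and between 5.45 and 5.80 elsewhere, so both placed WT 2 highest. Krt19, a further type I keratin of simple and follicular epithelium, had 6.33, 6.70 and 6.34 in the WT and 6.38, 6.44 and 6.39 in the KrP arrays. Krt7, Krt20 and Krt23 were not highest in WT 2. Krt20, a keratin of gut epithelium and Merkel cells, lay at background on all arrays, at 6.21, 6.16 and 5.70 in the WT and 5.48, 5.78 and 5.68 in the KrP arrays.

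The sequence before the start of the genes is shown for Krt8, Krt18 and Dsp, members high in WT 2 that are listed in the RefSeq promoter table (GRCm38.p6), and for Krt10, which was level across arrays. A further member listed there with a margin of at least 0.5, Krt14, is not shown because the start listed lies inside the gene's annotated span. Its window is still counted in the motif shares, although it may not be the promoter of Krt14. Of the 4 windows of Krt8, Krt18, Dsp and Krt14, 2 held an AP-2 match and none TATAAA or AP-1. That count says nothing on the promoter of Krt14. Each run is the 250 bases before the annotated start, read 5′ to 3′ on the gene's strand, with matches to 3 motifs in capitals. The windows are chr15:102004343-102004592 on the minus strand for Krt8, chr15:102027966-102028215 on the plus strand for Krt18, chr13:38151044-38151293 on the plus strand for Dsp and chr11:99389365-99389614 on the minus strand for Krt10.
Krt8: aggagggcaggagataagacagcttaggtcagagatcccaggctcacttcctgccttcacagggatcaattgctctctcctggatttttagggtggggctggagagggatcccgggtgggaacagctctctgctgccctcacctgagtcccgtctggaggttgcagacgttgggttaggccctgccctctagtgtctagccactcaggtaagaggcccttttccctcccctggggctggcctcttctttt
Krt18: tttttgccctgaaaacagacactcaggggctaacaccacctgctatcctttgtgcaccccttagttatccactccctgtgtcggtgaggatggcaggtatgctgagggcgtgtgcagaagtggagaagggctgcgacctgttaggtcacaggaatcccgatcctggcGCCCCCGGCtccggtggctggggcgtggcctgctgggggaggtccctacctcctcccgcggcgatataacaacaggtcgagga
Dsp: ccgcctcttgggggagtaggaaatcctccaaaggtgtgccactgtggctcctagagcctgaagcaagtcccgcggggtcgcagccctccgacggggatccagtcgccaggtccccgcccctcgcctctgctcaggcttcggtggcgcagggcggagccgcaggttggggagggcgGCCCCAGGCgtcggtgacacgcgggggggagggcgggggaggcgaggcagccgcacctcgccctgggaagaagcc
Krt10: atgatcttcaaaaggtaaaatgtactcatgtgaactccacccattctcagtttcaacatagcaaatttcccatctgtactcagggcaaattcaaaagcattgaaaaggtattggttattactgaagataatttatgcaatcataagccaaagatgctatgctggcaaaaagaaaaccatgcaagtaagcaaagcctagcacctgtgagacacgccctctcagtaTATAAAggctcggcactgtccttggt
The motifs searched on both strands were TATAAA (the TATA box), TGANTCA (AP-1) and GCCNNNGGC (AP-2), and the matches printed do not overlap one another. Krt18 and Dsp each held an AP-2 match, starting 83 and 75 bases before the start, Krt10 held TATAAA starting 26 bases before it, and the window of Krt8 held none of the 3. TATAAA was in 16 of the 38 members listed (42.1%) and in 13% of 27025 promoter windows, AP-2 in 6 (15.8%, against 13.6%) and AP-1 in 1 (2.63%, against 6.87%). A match describes letters only.

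Hair keratins were often highest in WT 2, but by small margins. The 13 member keratins of the hair shaft had margins from -0.36 to 0.21 for WT 2 over the highest other array, and those of the inner root sheath, 8 genes, the same span. WT 2 was the highest array for 11 of 13 and 5 of 8, against 24.9% of all genes. The median excess of WT 2 over the mean of the other 5 arrays was 0.248 for the 15 hair shaft keratins measured, Krt33a and Krt33b included, and 0.309 for those of the inner root sheath, against 0.028 for all genes. Their means over the 6 arrays ran from 5.54 to 7.30 and from 4.85 to 6.34, and the widest range of any of these genes over the 6 arrays was 0.94. Krt35, for example, a hair shaft keratin, had 6.99, 7.09 and 6.96 in the WT and 6.96, 7.00 and 7.04 in the KrP arrays. Krt81, of the shaft as well, had 7.23, 7.37 and 7.44 in the WT and 7.10, 7.38 and 7.26 in the KrP arrays, with WT 3 highest. The 51 hair keratin-associated protein genes had list means between 4.97 and 5.05 on all 6 arrays, with 5.02 in WT 2. The 13 remaining keratins, among them Krt42 (6.95 to 7.47) and Krt75, had margins from -0.31 to 0.41.

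**Figure D2:**
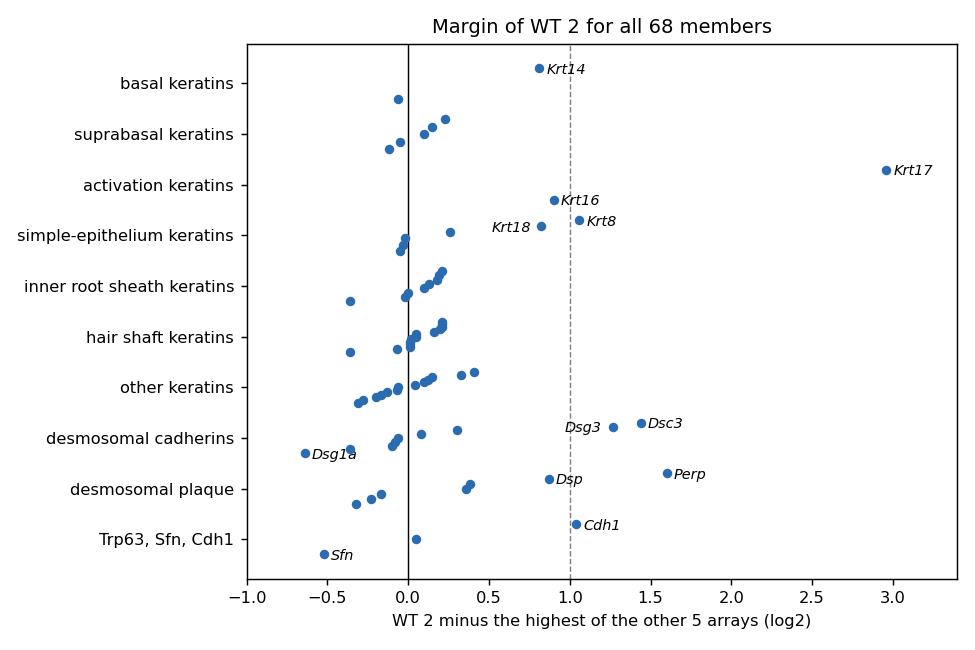
Log2 value of WT 2 minus that of the highest of the other 5 arrays (x axis) for each of the 68 members, grouped by role, with 1 point per gene. Points right of the solid line are genes with WT 2 highest (41), and points right of the dashed line exceed every other array by 1 log2 unit or more (6).

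The keratin genes lie in 2 clusters, type I genes with 25 members on chromosome 11 and type II genes with Krt18, 24 members, on chromosome 15. In the RefSeq gene order, several of the keratins with the largest excess in WT 2 were neighbours. Krt14, Krt16 and Krt17 follow each other among the keratins and had WT 2 values 0.97, 1.13 and 3.20 above the mean of the other 5 arrays. The flanking keratins Krt9 and Krt42 had differences of -0.03 and 0.23. Krt8 and Krt18 are neighbours at the end of the chromosome 15 cluster, with 1.11 and 1.08, and Krt78 beside them had 0.24. Krt6a, with 1.73, lies apart from them, between Krt6b (0.57) and Krt5, which had no value of its own. Smaller excesses lay elsewhere, such as 0.61 for Krt87 and 0.39 for Krt20, the latter between Krt12 (-0.06) and Krt23 (0.03). Close relatives such as Krt14, Krt16 and Krt17 have similar sequences, so signal from one may reach the probes of another, and the values of the lesser ones are uncertain.

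**Figure D3:**
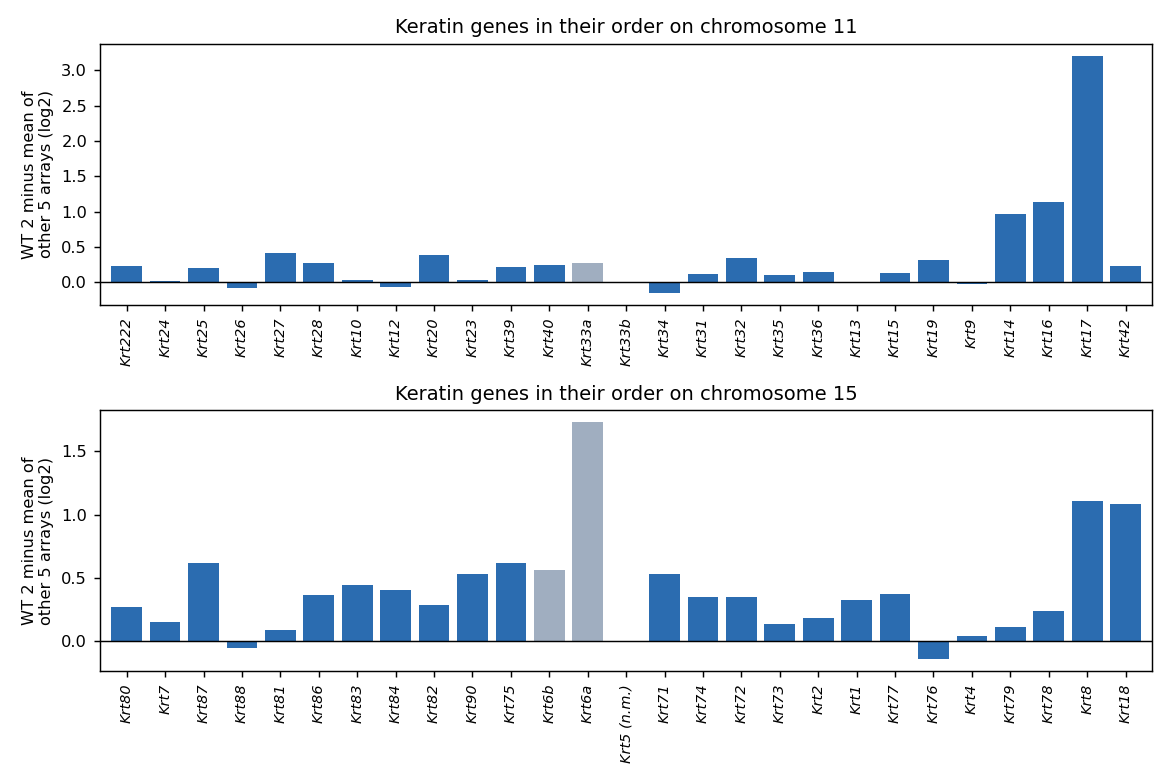
Log2 value of WT 2 minus the mean of the other 5 arrays (y axis, scaled per panel) for keratin genes in their order on chromosomes 11 and 15. Blue bars are members, grey bars keratins outside the rule, and n.m. marks Krt5, which has no probe set of its own; the highest bars are Krt17 with 3.20 on chromosome 11 and Krt6a with 1.73 on chromosome 15.

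Desmosomal cadherins differed in their margins. Dsc3, the desmocollin of basal epidermis, had log2 values of 5.94, 7.38 and 5.92 in the WT and 5.64, 5.76 and 5.66 in the KrP arrays. Dsg3, the desmoglein of the same layer, had 5.35, 6.62 and 5.32 in the WT and 5.13, 5.20 and 5.30 in the KrP arrays. Both were above background in WT 2 alone, with margins of 1.44 and 1.27 log2 units over arrays at background. The broadly used pair, Dsg2 and Dsc2, lay at background on every array. Dsg2 had 5.40, 5.53 and 5.41 in the WT and 5.36, 5.63 and 5.55 in the KrP arrays, and Dsc2 had 4.60, 4.96 and 4.86 in the WT and 4.88, 4.77 and 4.56 in the KrP arrays. Dsc1 and the Dsg1 genes, which serve the upper layers, were not highest in WT 2. Dsg1a was highest in KrP 2, at 6.40, and ran from 5.05 to 5.79 on the other arrays. It was the 1 member (1.47%) with a range of at least 1 log2 unit over the 5 arrays without WT 2, as held for 8.23% of all genes. With WT 2 included there were 12 such members (17.6%, against 11.5%), and WT 2 was the highest array for 11 of them. No desmosomal cadherin had a mean above background.

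Plaque genes held both patterns. Perp, a membrane protein of desmosomes and a p63 target, had log2 values of 6.12, 7.72 and 5.86 in the WT and 5.14, 5.78 and 5.96 in the KrP arrays. WT 2 alone was above background, 1.60 log2 units over WT 1. Dsp had 6.04, 7.23 and 5.94 in the WT and 5.89, 6.30 and 6.36 in the KrP arrays. WT 2 was 1.83-fold above KrP 3, the next array. Pkp1, the plakophilin of upper epidermis, had 6.78, 7.61 and 6.92 in the WT and 6.33, 6.75 and 7.25 in the KrP arrays. Pkp3, found in most epithelia, had 6.87, 7.31 and 6.93 in the WT and 6.87, 6.85 and 6.78 in the KrP arrays. For these genes the margins of WT 2 were 0.36 and 0.38. Pkp2, the plakophilin of heart and simple epithelia, lay at background, at 5.16 to 5.57, with WT 2 inside the range of the others.

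A pair of plaque genes that also act outside desmosomes did not have their highest value in WT 2. Pkp4, which also binds classical cadherins, had a mean of 9.64, with 9.88, 9.83 and 10.00 in the WT and 9.09, 9.65 and 9.39 in the KrP arrays. Every KrP array lay below every WT array. Jup, which also replaces beta-catenin at classical cadherins, had 7.59, 7.75 and 7.44 in the WT and 8.07, 7.31 and 7.85 in the KrP arrays, and the groups overlapped. Both genes were above background on all 6 arrays.

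Of the 3 epithelial identity genes, Cdh1 alone followed the keratins. Cdh1, which encodes E-cadherin, had log2 values of 6.63, 7.74 and 6.55 in the WT and 6.44, 6.70 and 6.67 in the KrP arrays, 2.06-fold higher in WT 2 than in the next array. Its second probe set was at background, from 4.81 to 4.97. Trp63, the transcription factor p63 of basal keratinocytes, had 6.09, 6.14 and 5.95 in the WT and 5.80, 6.06 and 5.89 in the KrP arrays, under the background percentile throughout. Sfn, the 14-3-3 sigma protein, had 8.87, 9.09 and 9.61 in the WT and 8.64, 8.76 and 8.87 in the KrP arrays. WT 3, and not WT 2, was the highest array for Sfn, and all 6 arrays lay above background.

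Epithelial genes outside the member list were high in WT 2 as well. Over 21 measured keratinocyte markers that are not members, the list mean was 6.74 in WT 2 and between 5.95 and 6.10 on the other arrays, and WT 2 was the highest array for 18. The tight-junction gene Cldn4 had 9.30 in WT 2 and 6.44 to 6.55 elsewhere, and Cldn1 had 8.00 and 5.87 to 6.41. Sprr1a, which encodes a cornified envelope precursor, had 9.41 and 6.70 to 6.89, and the serpin Serpinb5 had 7.14 and 4.66 to 5.36. Epcam, a surface protein of simple and follicular epithelium, had 6.33 and 4.89 to 5.21. Grhl3, a transcription factor of the epidermal barrier, had 7.67 and 5.98 to 6.45. The corresponding list means were 6.66 against 5.95 to 6.08 for 14 tight and adherens junction genes, 6.63 against 6.10 to 6.19 for 19 cornified envelope genes, and 6.54 against 5.94 to 6.07 for 14 epithelial regulators. In the same order, WT 2 was the highest array for 12 of 14, 12 of 19 and 11 of 14 genes, so not every gene of these lists followed. The cornified envelope gene Cdsn, for example, had 6.97 in WT 2 and was highest in KrP 1, at 7.13. Of the 34 genes with a margin of at least 1 in WT 2, 6 were members and 8 were others from these epithelial lists.

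Of the 6 genes of the sort, 3 were highest in WT 2 (Pecam1, Ptprc and Kit, with margins of 0.39, 0.16 and 0.12), 2 were lowest there (Pdgfra and Pdgfrb), and Itga6 was neither. Itga6 (CD49f), an integrin of basal keratinocytes that the sort excluded, had 7.16, 7.91 and 7.16 in the WT and 6.49, 8.16 and 8.01 in the KrP arrays, so KrP 2 and KrP 3 lay above WT 2. Its partner Itgb4 had 7.37 in WT 2 and 6.74 to 6.84 elsewhere, and Col17a1, a hemidesmosome collagen, had 7.87 and 7.00 to 7.36. WT 2 was the highest array for 4 of the 8 hemidesmosome genes measured, with a list mean of 8.545 against 8.22 to 8.52. Cd151 was lowest in WT 2, at 11.37, and Dst had 10.03 there and 9.97 to 10.47 elsewhere. Pdgfrb, which encodes the CD140b receptor, was lowest in WT 2 at 11.86, and ran from 12.40 to 13.12 on the other arrays. Pdgfra (CD140a) was also lowest there, at 13.13 against 13.24 to 13.54.

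Lists of several other cell types also had their highest mean in WT 2. The list mean of 13 blood cell markers was 6.52 in WT 2 and 6.10 to 6.25 elsewhere, with 8 genes above background in WT 2 and 4 or 5 elsewhere, while Ptprc (CD45) was under background at 5.15. That of 10 endothelial markers was 7.03 against 6.74 to 6.93, with 9 above background in WT 2 and 5 to 7 elsewhere. That of 10 melanocyte markers was 6.37 against 6.12 to 6.26, and 4 of these lay above background in WT 2 and 2 to 4 elsewhere. Merkel cell markers, which include Krt8, Krt18 and Krt20, had a mean of 6.94 against 6.44 to 6.64, with 7 of 9 above background in WT 2 and 4 to 8 elsewhere. Lists of mast cell (4.69 against 4.47 to 4.55) and Schwann cell markers (7.32 against 6.94 to 7.14) also had their highest mean in WT 2. So did skeletal muscle markers (6.58 against 6.39 to 6.57), but not those of adipocytes or of smooth muscle. WT 2 was the single highest array for 11 of 13 blood cell, 4 of 10 endothelial and 6 of 10 melanocyte markers. The same held for 5 of 9 Merkel cell, 3 of 7 mast cell and 2 of 5 Schwann cell markers. It held for 5 of 10 skeletal muscle, 4 of 10 smooth muscle and 1 of 7 adipocyte markers, against 24.9% of all genes. The olfactory receptor mean was 4.18 in WT 2, inside the span of 4.11 to 4.22 on the other arrays. The part of any of these cell types in the excess of WT 2 was not tested.

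**Figure D4:**
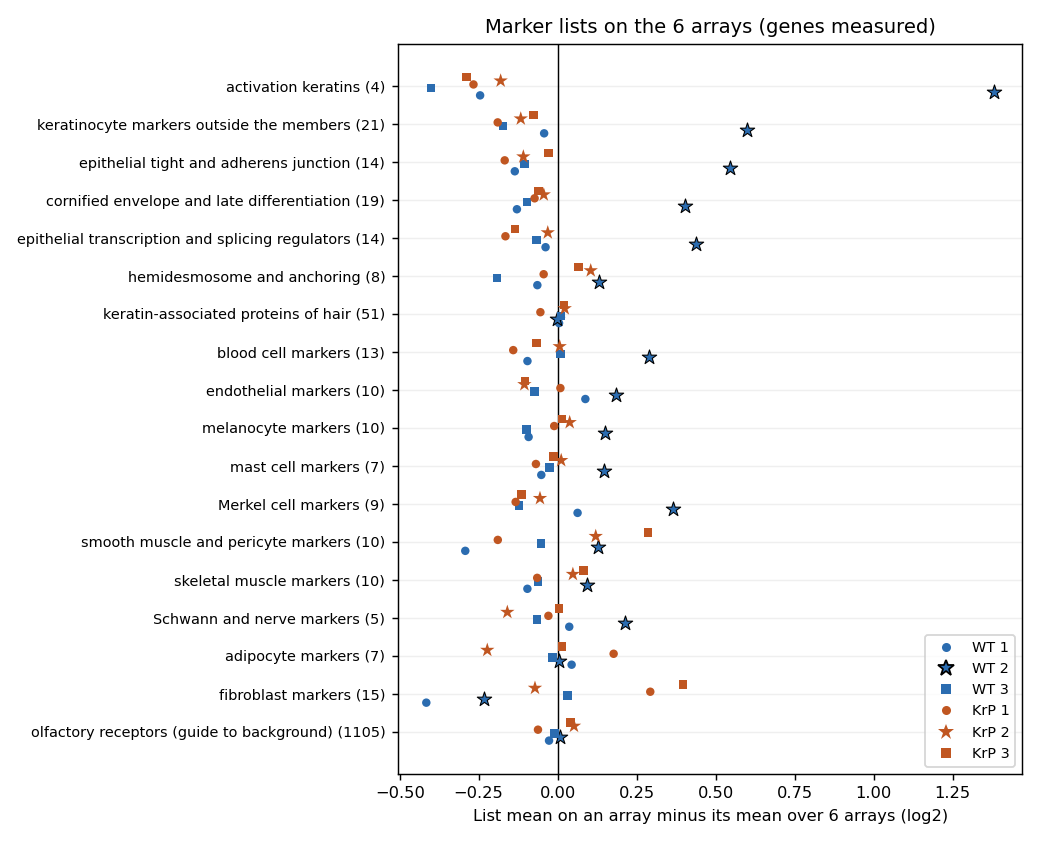
Mean log2 value of each marker list on each array minus the list's mean over the 6 arrays (x axis), with the number of measured genes in parentheses. Blue symbols are WT and orange KrP arrays, and the outlined star is WT 2, which lies right of all other arrays for the activation keratins and the keratinocyte markers (6.74 against 5.95 to 6.10 for the latter).

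The comparison of KrP with WT called none of the members. With limma over all 22180 genes, 0 of 68 members passed at an adjusted p under 0.05, where 2.18% of all genes did (1.15% higher and 1.03% lower in KrP), and the smallest adjusted p among members was 0.149. At an unadjusted p under 0.05 there were 3 members (Pkp4, Krt15 and Krt20, 4.41%) against 16% of all genes. All 3 were lower in KrP, as were 6.56% of all genes at that p. Every KrP array lay below every WT array for 6 members (Krt17, Dsc3, Dsg3, Krt36, Krt15 and Pkp4, or 8.82%, against 8.93% of all genes) and above for 2 (Krt34 and Krt76, 2.94%, against 11.4%). None of these shares exceeded that of all genes. The KrP mean was the lower for 50 of 68 members (73.5%, against 48.6% of all genes), with a median difference of -0.078 on the log2 scale against 0.007 over all genes.

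That tilt towards lower values in KrP went with WT 2. Without WT 2, the KrP mean was the lower for 30 members (44.1%, against 44.7% of all genes), the median difference was 0.023 against 0.025 over all genes, and again 0 members passed (1.15% of all genes), with 4 at an unadjusted p under 0.05 (5.88%, against 13.3%). Krt17 had a mean of 7.03 ± 1.76 in WT and 5.75 ± 0.16 in KrP arrays (SD, n = 3 each), a difference of -1.27 ± 0.72 (SE, log2, limma adjusted p = 0.447). Without WT 2 its difference was -0.26 (adjusted p = 0.469). Perp went from -0.94 to -0.36, Dsc3 from -0.73 to -0.24, Dsg3 from -0.55 to -0.13, Krt8 from -0.38 to -0.02 and Krt14 from -0.37 to -0.05. The differences of Dsp (-0.22), Krt18 (-0.19), Krt16 (-0.29) and Cdh1 (-0.37) turned to 0.19, 0.22, 0.11 and 0.01. None of these passed either way.

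**Figure D5:**
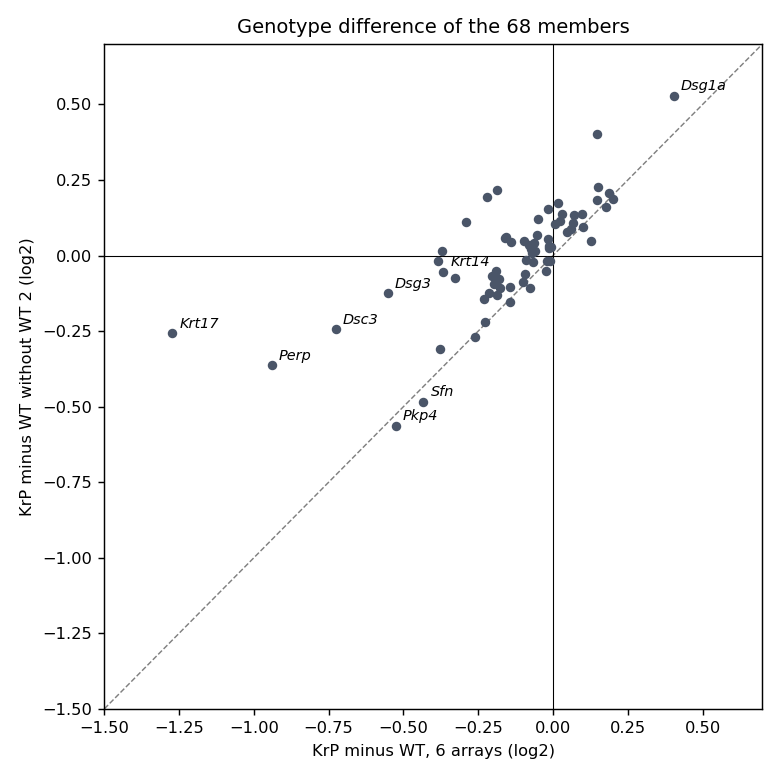
Difference between KrP and WT means (log2) of the 68 members, from all 6 arrays on the x axis and without WT 2 on the y axis, with 1 point per gene and the line of equality dashed. Krt17 moves from -1.27 to -0.26, whereas Pkp4 and Sfn stay near the line (-0.53 and -0.56, and -0.43 and -0.48).

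Differences of several members were much the same without WT 2, among them all 3 with an unadjusted p under 0.05. Pkp4 had a mean of 9.90 ± 0.09 in WT and 9.38 ± 0.28 in KrP arrays (SD, n = 3 each), a difference of -0.53 ± 0.16 (SE, log2) that missed the threshold (limma adjusted p = 0.149, or 0.0624 with the replicate number as a block). Its difference was -0.56 without WT 2 (adjusted p = 0.252), and -0.66 without KrP 2, where it passed (adjusted p = 0.0418, in a fit that called 5.03% of all genes). Sfn had 9.19 ± 0.38 and 8.76 ± 0.12, a difference of -0.43 ± 0.19 (SE, limma adjusted p = 0.328). Krt15 had 5.28 ± 0.03 and 5.02 ± 0.12, a difference of -0.26 between levels at background (limma adjusted p = 0.264), and -0.27 without WT 2. Krt20, also at background, had a difference of -0.38 (limma adjusted p = 0.296), and -0.31 without WT 2. Krt36 (-0.23 and -0.22), Krt34 (0.20 and 0.19) and Krt76 (0.18 and 0.16), whose groups did not overlap, changed as little. Dsg1a had the largest difference in the other direction, 0.40 ± 0.26 (SE, limma adjusted p = 0.504), which was 0.16 without KrP 2. With the block, 8.35% of all genes passed and again 0 members. With array weights, 28.9% of all genes and 8 members (11.8%) passed, Pkp4, Sfn and Krt15 among them.

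Neighbouring parts of the adhesion and filament machinery held single calls, where 2.18% of all genes passed, or 8.35% with the block. Of 14 tight and adherens junction genes, 14 epithelial regulators and 21 keratinocyte markers, none passed in the comparison of KrP with WT (with the block 2 regulators fell, Klf5 with an adjusted p of 0.0234 and Tfap2a with 0.0452), and of 15 other intermediate filament genes, Vim included, none passed. Of 19 cornified envelope genes, 1 rose: Tgm1, a protein-crosslinking transglutaminase, had 8.00, 7.84 and 7.67 in the WT and 9.60, 8.62 and 8.95 in the KrP arrays (log2 fold change 1.22, limma adjusted p = 0.0451). Of 8 hemidesmosome genes, 1 rose: Cd151, a tetraspanin partner of integrins, had 11.99, 11.37 and 11.55 in the WT and 12.72, 12.33 and 12.56 in the KrP arrays (0.90, adjusted p = 0.0381). Neither gene had its highest level in WT 2. Of 13 classical cadherins and catenins, 1 rose and 1 fell. Cdh11, the main cadherin of fibroblasts, had 12.36, 12.16 and 12.14 in the WT and 13.01, 12.72 and 12.70 in the KrP arrays (0.59, adjusted p = 0.0346), and Cdh4 (R-cadherin) had 10.20, 10.43 and 10.45 against 8.83, 9.50 and 9.12 (-1.21, adjusted p = 0.0165). The calls did not outlast the loss of an array, although the differences without WT 2 were 0.77 for Cd151, 0.56 for Cdh11, -1.18 for Cdh4 and 1.22 for Tgm1, and the groups did not overlap for any of the 4. All 4 ended without WT 2 (limma adjusted p from 0.0602 to 0.124), without WT 3 (0.10 to 0.206) and without KrP 3 (0.114 to 0.186), those of Tgm1 (0.0933) and Cdh11 (0.0558) also without WT 1, and that of Cd151 (0.0844) also without KrP 1. With the replicate block all 4 passed (limma adjusted p from 0.00259 to 0.0088), in a fit that called 8.35% of all genes.

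Leaving WT 2 out moved the count over all genes, as leaving out any other array did (85 without KrP 3 to 1116 without KrP 2). Without it 256 genes passed, of which 222 were among the 483 called with all arrays (46.0% of the latter and 86.7% of the former). All 483 kept their sign. With the mean of the 21 keratinocyte markers as a covariate, 233 genes passed, of which 199 were among the 483 (41.2% and 85.4%). That mean was 6.74 in WT 2 and 5.95 to 6.10 elsewhere, so this fit comes close to leaving WT 2 out and is not independent of it. None of the 34 genes that were highest in WT 2 by at least 1 log2 unit was among the 483, which were 2.18% of all genes. Choice by 1 high WT array widens the spread within WT, so this count cannot speak on the genotype.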

How the data were processed

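Fibroblast RNA was measured on 1 array per sample. Per the labels' protocols, total RNA was labelled with a whole-transcript kit. The deposited values are log2 expression values made by the authors, and per the submitters' processing notes RMA and Partek were used, with no version given. A genome build is not given in the sources used here. Array medians lay between 6.34 and 6.43, and nothing was normalised further. Precision is limited by the number of arrays, which have no read depth.

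Gene names came from the platform annotation of the probe sets, with symbols updated by gene ID from RefSeq (GRCm38.p6). Of 34390 probe sets, 23521 had 1 gene, 1814 several and 9055 none. KrP and WT were compared with limma 3.58.1 in R 4.3.3 (lmFit, eBayes with a trend, no block) over 22180 genes, with Benjamini-Hochberg adjustment, and the code was tested on simulated data. Margins of WT 2 are descriptions without a test. Figures were drawn with matplotlib 3.10.9. The members, the lists and the naming rule were chosen with earlier results of these data known. The rule named fixed marker genes, called members, and the 10 members highest in mean, difference or range, which gave 28. For other lists it named sort markers, called genes and the 3 with the widest range. Others were chosen after their values were seen.

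Deviations from group means correlated between same-numbered samples by 0.414, 0.350 and 0.120 across genes, and by -0.385 to 0.067 between differently numbered ones. Deviations within a group cancel, so these correlations are not independent. Same-numbered samples were therefore treated only as possibly paired, on the evidence of the values alone. Alternatives were the replicate number as a block, other variance priors, array weights, filters, normalisations, averaged probe sets, a keratinocyte covariate and leaving out each sample.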

Additional observations from a re-analysis of the deposited data

How the results depend on the processing

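The count of 483 genes over all genes became 1851 with the replicate block, 6410 with array weights (which gave KrP 3 a weight of 7.91 and WT 2 one of 0.409), 233 with the keratinocyte covariate, and 896 without WT 2 and with the block, the last chosen after seeing the data. Leaving out 1 sample at a time gave 85 (without KrP 3) to 1116 (without KrP 2), with 230 without WT 1, 256 without WT 2, 101 without WT 3 and 321 without KrP 1. The other alternatives gave 437 to 548. The count of 0 members became 8 with array weights (11.8%, against 28.9% of all genes) and ran from 0 to 1 when 1 sample was left out. It was 0 under the other alternatives, where the replicate block changed no call of a member. The 8 were Krt12, Krt15, Krt71, Krt76, Krt83, Pkp2, Pkp4 and Sfn. The median member difference ran from -0.16 to 0.031 over all alternatives. The cause was not tested.

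No named member that changed sign was called. With the covariate the differences were 0.043 for Cdh1, 0.235 for Dsp, 0.040 for Krt1, 0.129 for Krt16, 0.227 for Krt18, 0.073 for Krt19, 0.031 for Krt35 and 0.009 for Krt42. With array weights they were -0.006 for Dsg1a, 0.235 for Dsp, 0.046 for Krt1, 0.014 for Krt19, 0.055 for Krt35, 0.094 for Krt42 and 0.209 for Pkp1, and with quantile normalisation Krt10 had -0.004. Leaving out 1 sample gave ranges of -0.582 to 0.013 for Cdh1, -0.173 to 0.018 for Dsc2, -0.452 to 0.193 for Dsp, -0.013 to 0.367 for Jup, -0.155 to 0.035 for Krt1, -0.515 to 0.110 for Krt16, -0.438 to 0.217 for Krt18, -0.117 to 0.068 for Krt19, -0.040 to 0.025 for Krt35 and -0.160 to 0.050 for Krt42. Signal near background limits how well low genes can be compared.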

Other observations

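Genes that no epithelial list held were also highest in WT 2. They are named here after their values were seen, so no test of KrP against WT is given for any of them singly, since the choice by a high WT array tilts it. Plet1, a surface protein known from hair follicle progenitors, was at 10.59 (log2) in WT 2 and at 7.80 to 8.47 on the other arrays. The epidermal protease Asprv1 had 8.82 and 6.73 to 7.14, and the keratinocyte exonuclease Trex2 had 7.91 and 6.26 to 6.64. Signals and receptors of inflammation were in the same group. Csf2, the growth factor GM-CSF, had 10.05 in WT 2 and 5.50 to 8.38 elsewhere, with KrP 1 lowest. Tnfsf18 had 9.71 and 4.20 to 7.82, again with KrP 1 lowest. Tnf had 10.45 and 7.38 to 9.03, with KrP 3 lowest. Csf2rb2, a cytokine receptor chain, had 8.46 and 5.66 to 6.43.

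Ifi202b, an interferon-inducible gene whose expression is known to differ between inbred mouse strains, split the arrays across the genotypes. It had 3.81, 10.39 and 3.93 in the WT and 9.11, 4.37 and 8.00 in the KrP arrays, so that WT 2, KrP 1 and KrP 3 were high and WT 1, WT 3 and KrP 2 were low.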
